A study of Mus musculus with 28 samples.

Results

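Skeletal muscle genes were followed in hollow organs of fetal mice that lacked p63 (knockout, KO) or carried it (wild type, WT). The set holds 35 genes, chosen by symbol, out of 18193 genes that the array measures with a probe set carrying a single symbol. Each gene was read from its probe set with the highest mean over all arrays. Of the 35 genes, 24 passed a filter on low values and entered the test, and 11 did not. The study hybridised RNA of 5 tissues from Balb/c mice to 28 Affymetrix mouse arrays. Bladder of KO and of WT mice was sampled at E15, E18 and E19 (E for embryonic day). At E18 both genotypes also gave proximal and distal stomach, and small and large intestine. Each of the 14 groups had 2 arrays. The labels name collected tissue, while a general description on each array speaks of stem cells. The sources used here state neither the p63 allele nor how the organs were dissected nor how many animals were used, and p-values measure the spread between these samples, which may be technical.

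Skeletal muscle is striated muscle that forms when myoblasts fuse into multinucleated fibres. The myogenic factors Myf5, Myod1, Myog and Myf6 are basic helix-loop-helix proteins that bind the DNA element called the E-box and switch on the genes of the fibre. Those genes encode the thick filament (myosins and their light chains), the thin filament (actin with its troponins), the Z disc, the calcium store and the acetylcholine receptor through which a motor nerve drives the fibre. The walls of stomach, intestine and bladder consist of smooth muscle, which has its own actins and myosin. In the mouse, striated muscle lies next to these organs in the oesophagus wall and in the sphincter around the urethra.

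Expression is given on the log2 scale as deposited, so a difference of 1 is a 2-fold difference. Changes are KO minus WT unless another pair is named. Standard errors (SE) and p-values come from limma, with p adjusted over the 13566 genes tested, and a call means an adjusted p below 0.05. In bulk tissue, fewer cells of a type and less RNA per cell cannot be told apart. Array medians were 7.48 to 7.54 on the 4 E19 arrays and 7.73 to 7.86 on the others. The difference between 3' and 5' actin probe sets, a sign of RNA quality, was 1.33 and 1.12 in KO bladder E15, against 0.69 and 0.78 in WT bladder E15. In proximal stomach it was 0.48 and 0.61 in KO and 0.97 and 0.88 in WT. Trp63, the gene of p63, read 9.44 and 9.62 in KO bladder E19, against 11.67 and 12.28 in WT, and 13.67 and 13.78 in KO proximal stomach, against 13.16 and 13.31 in WT. Whether its probe set lies inside the deleted stretch is unknown here, so these levels do not check the labels. Smooth muscle markers were high on all arrays, with Acta2, the smooth muscle actin, at 13.72 or above.

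The promoters of 4 genes are shown because these genes carry the patterns described below: Myog and Mylpf changed with single arrays and with the proximal stomach, and Ckm and Acta1 with the age of the bladder. Each sequence runs from 250 bases before the start of transcription to 50 bases after it, from RefSeq on GRCm38.p6, with every E-box (CANNTG) in capitals. They lie at chr1:134289754-134290053 (plus strand), chr7:127211358-127211657 (plus strand), chr7:19410844-19411143 (plus strand) and chr8:123894726-123895025 (minus strand).
Myog: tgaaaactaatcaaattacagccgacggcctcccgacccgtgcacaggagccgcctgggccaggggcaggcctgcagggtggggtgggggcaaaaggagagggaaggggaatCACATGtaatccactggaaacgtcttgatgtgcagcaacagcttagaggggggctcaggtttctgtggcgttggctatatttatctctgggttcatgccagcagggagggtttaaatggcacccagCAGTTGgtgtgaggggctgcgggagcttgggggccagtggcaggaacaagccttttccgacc
Mylpf: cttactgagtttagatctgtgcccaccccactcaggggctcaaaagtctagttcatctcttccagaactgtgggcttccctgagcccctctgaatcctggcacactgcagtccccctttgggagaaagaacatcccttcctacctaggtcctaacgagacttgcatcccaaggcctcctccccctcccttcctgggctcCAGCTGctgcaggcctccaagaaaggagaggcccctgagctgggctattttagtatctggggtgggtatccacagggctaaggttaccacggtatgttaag
Ckm: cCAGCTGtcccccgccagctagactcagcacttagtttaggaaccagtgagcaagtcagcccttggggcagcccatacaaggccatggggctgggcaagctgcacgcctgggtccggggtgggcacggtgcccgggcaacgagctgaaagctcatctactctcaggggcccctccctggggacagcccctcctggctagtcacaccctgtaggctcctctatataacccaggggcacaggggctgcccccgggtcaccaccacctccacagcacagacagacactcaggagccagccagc
Acta1: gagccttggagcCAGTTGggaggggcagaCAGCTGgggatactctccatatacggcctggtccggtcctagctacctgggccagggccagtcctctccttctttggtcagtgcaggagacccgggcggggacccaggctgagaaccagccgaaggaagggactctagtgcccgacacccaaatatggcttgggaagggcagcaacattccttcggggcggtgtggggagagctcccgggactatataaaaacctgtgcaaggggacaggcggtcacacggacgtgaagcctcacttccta
Myog and Acta1 hold 2 E-boxes in this window, and Mylpf and Ckm hold 1. A promoter was in the table for 27 of the 35 genes. At least 1 E-box stood in 23 of the 27 (85.2%), against 72.3% of all 32851 promoters. The E-box form CAGCTG stood in 12 (44.4%, against 16.3% of all), and CAGGTG, also an E-box form, in 8 (29.6%, against 20.2%). The MEF2 consensus, the site of another muscle factor, stood in 4 (14.8%, against 3.19%), and TATAAA in 8 (29.6%, against 13.6%), all on both strands. A match describes letters in the window and is no measured site.

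The 35 genes did not move as 1 block. Acta1, Tnnt3, Tnnc2, Casq2, Ckm, Eno3 and Myh8 were high in every bladder array from E18 on in both genotypes. Myog, Myh3 and Mylpf were high on single bladder arrays and in WT proximal stomach. Myl1 was high on the same bladder arrays, but its level in WT proximal stomach (9.19 and 8.35) was near that in small intestine, 9.38 and 9.22 in KO and 8.88 and 8.92 in WT. Myh7 stood apart, with its highest levels in distal stomach. The genes on an array that exceeded that array's median numbered 23 of 35 on KO bladder E18 replicate 1 and 16 on replicate 2, and 14 on each WT bladder E18 array. In proximal stomach they numbered 9 and 8 in KO, against 18 and 13 in WT.

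**Figure D1:**
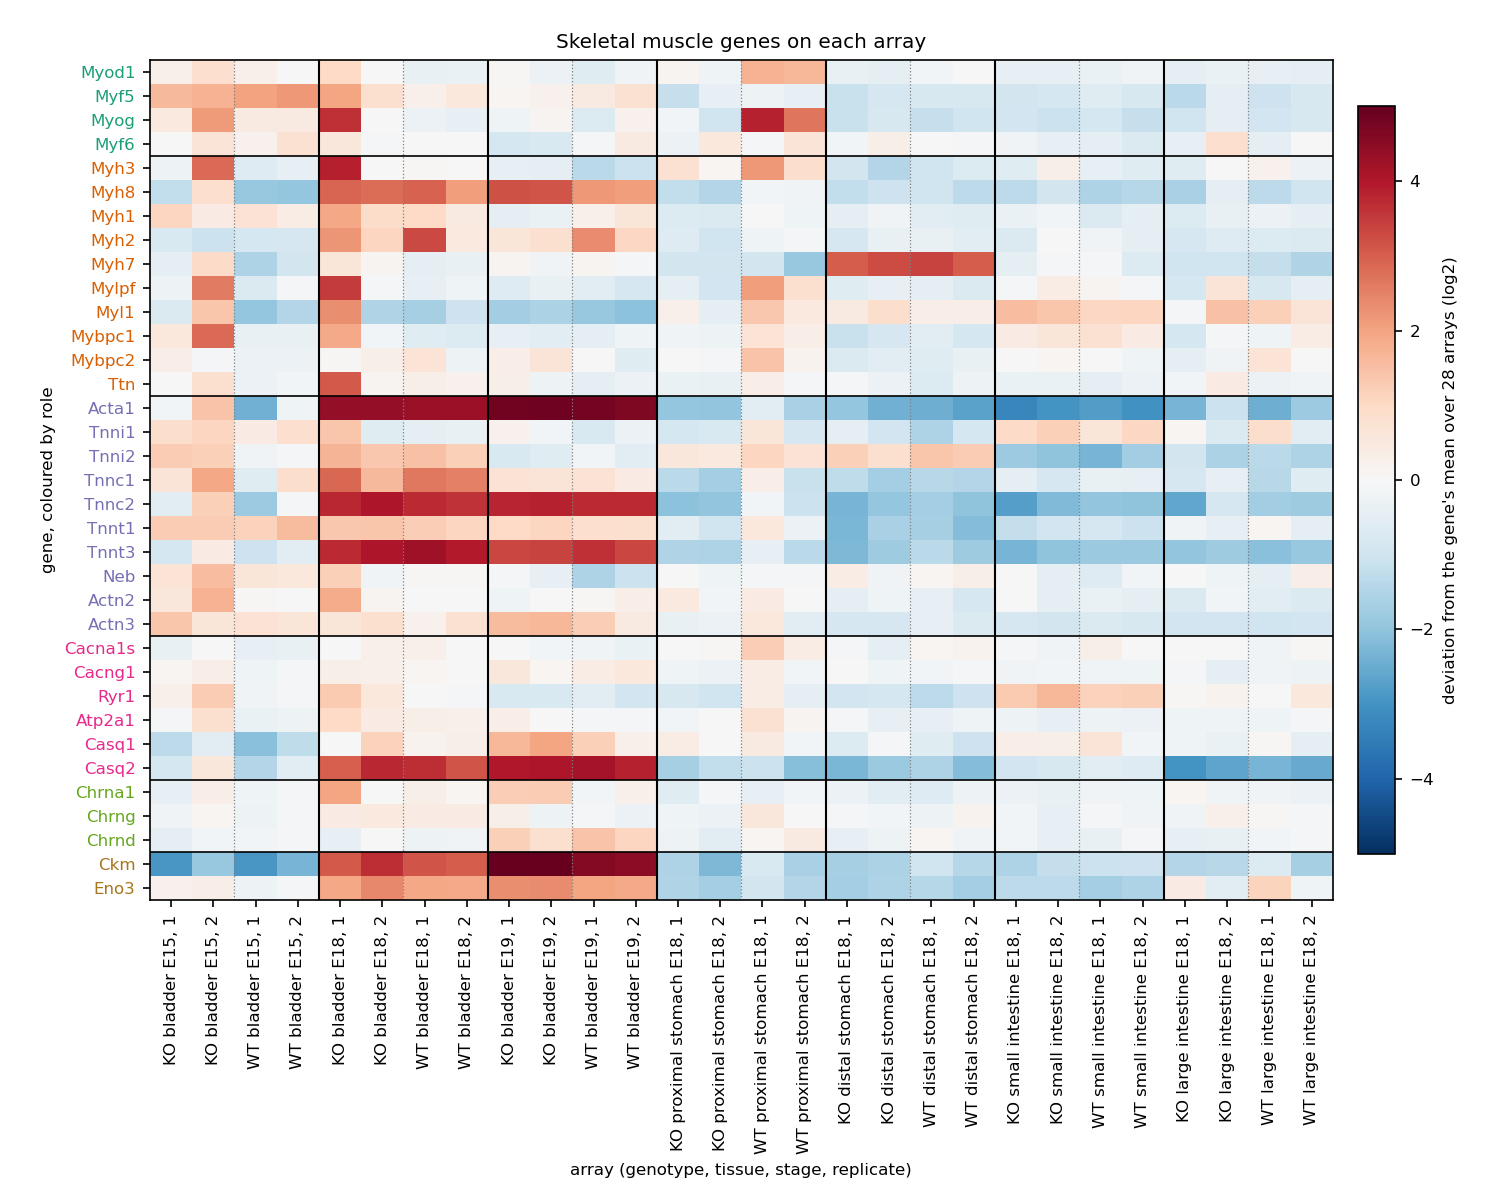
Deviation of each of the 35 genes (rows, coloured by role) from its mean over 28 arrays (log2, colour scale), with arrays in columns by tissue, stage, genotype and replicate. Acta1, Tnnc2, Tnnt3, Casq2 and Ckm are high on all 8 bladder arrays of E18 and E19, while Myog is highest on the 2 WT proximal stomach arrays and KO bladder E18 replicate 1.

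Some genes passed the filter through few arrays, which limits what a count of them can show. Myod1 and Myog exceeded the array median only on both WT proximal stomach arrays and KO bladder E18 replicate 1. Mybpc1 and Actn2 did so only on KO bladder E15 replicate 2 and KO bladder E18 replicate 1, and Myh2 only on WT bladder E18 replicate 1 and WT bladder E19 replicate 1. The 11 genes outside the test were Myf5, Myf6, Myh1, Mybpc2, Ttn, Neb, Cacna1s, Cacng1, Chrna1, Chrng and Chrnd. All 3 acetylcholine receptor subunits of the set are among them. So are Cacna1s and Cacng1, subunits of the voltage sensor of the fibre. A probe set of Ttn with a lower mean passed the filter but did not stand for the gene. Its KO minus WT difference was 1.05, 1.94 and -0.26 in bladder at E15, E18 and E19, and -0.95 in proximal stomach. From E15 to E18 in WT bladder it changed by -0.59, against 0.47 for the probe set used.

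In WT bladder 11 of the 24 genes tested rose from E15 to E18 and 0 fell, where 17.2% of all genes rose and 28% fell. By role they were 5 of 9 tested genes of the thin filament and Z disc, 2 of 7 of the thick filament, 2 of 4 of calcium release and uptake, 2 of 2 metabolic enzymes and 0 of 2 myogenic factors. Acta1, the skeletal actin, read 14.18 and 14.14 in WT bladder E18, against 7.45 and 9.66 in WT bladder E15 (difference 5.60, SE 0.53, adjusted p = 1.4e-07). Ckm, the muscle creatine kinase that buffers ATP, read 11.91 and 11.78 at E18, against 5.86 and 6.43 at E15 (5.70, SE 0.35, adjusted p = 6.4e-10). Both E18 arrays lay far above both E15 arrays for each gene.

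Among the fast troponins and calsequestrins, Tnnt3, Tnnc2 and Casq2 had the largest rises. Tnnt3, fast troponin T, read 13.75 and 13.47 at E18, against 8.47 and 8.96 at E15 (4.89, SE 0.32, adjusted p = 1.4e-09). Tnnc2, fast troponin C, read 13.59 and 13.45, against 8.02 and 9.79 (4.62, SE 0.53, adjusted p = 1.6e-06). Casq2, a calsequestrin that holds calcium in the sarcoplasmic reticulum, read 12.77 and 12.23, against 7.61 and 8.52 (4.43, SE 0.40, adjusted p = 8.0e-08). The stages did not overlap for any of these 3 genes.

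Myh8, the perinatal myosin heavy chain, read 10.73 and 9.88 in WT bladder E18, against 5.89 and 5.87 at E15 (4.43, SE 0.43, adjusted p = 2.3e-07). The other rises were those of Myh2 (2.76), Tnnc1 (2.42), Eno3, the muscle enolase (2.06), Casq1 (1.91) and Tnni2, fast troponin I (1.44). Myh2, a fast adult myosin, differed between the WT arrays of 1 age, with 8.89 and 6.05 at E18. Myh2 passed the filter only through WT bladder E18 replicate 1 and WT bladder E19 replicate 1. Leaving out each WT array of these ages in turn kept the count at 11. A second probe set of Ckm, too dim for the filter, differed by 2.30.

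The other 13 genes tested did not pass in WT bladder. Ryr1 differed by 0.11, Atp2a1 by 0.57, Tnnt1 by -0.23 and Tnni1 by -1.06. Myog, the factor of myoblast differentiation, read 4.93 and 4.81 at E18, against 5.67 and 5.68 at E15. Myh3, the embryonic myosin heavy chain, read 7.25 and 7.19, against 6.55 and 6.79. Mylpf, the fast regulatory light chain, read 7.77 and 7.98, against 7.48 and 8.08. The stages overlapped for Mylpf. Myf5 differed by -1.71 (SE 0.30) in a fit without the filter, at levels below the array median.

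In KO bladder 9 of 24 genes rose from E15 to E18 and 0 fell, and all 9 were among the 11 of WT bladder. Over all genes, 15.8% rose and 31.1% fell in KO bladder. Ckm read 11.82 and 12.46 in KO bladder E18, against 5.84 and 6.86 in KO bladder E15 (5.79, SE 0.35, adjusted p = 8.5e-10). Tnnt3 read 13.22 and 13.52, against 8.61 and 9.92 (4.11, SE 0.32, adjusted p = 1.9e-08). Acta1 read 14.27 and 14.25, against 9.74 and 11.31 (3.73, SE 0.53, adjusted p = 1.4e-05). The others were Tnnc2 (3.61), Casq2 (3.52), Myh8 (3.06), Myh2 (2.56), Eno3 (1.92) and Casq1 (1.53). With a covariate for the actin 3' to 5' difference, 2 genes of KO bladder passed, Ckm (5.29, adjusted p = 0.00483) and Tnnt3 (3.87, adjusted p = 0.0194). No difference between the genotypes in this change passed for any of the 24 genes, by limma's test of the difference (4 at an unadjusted p under 0.05, 0.229% of all genes called higher and 0.383% lower).

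**Figure D2:**
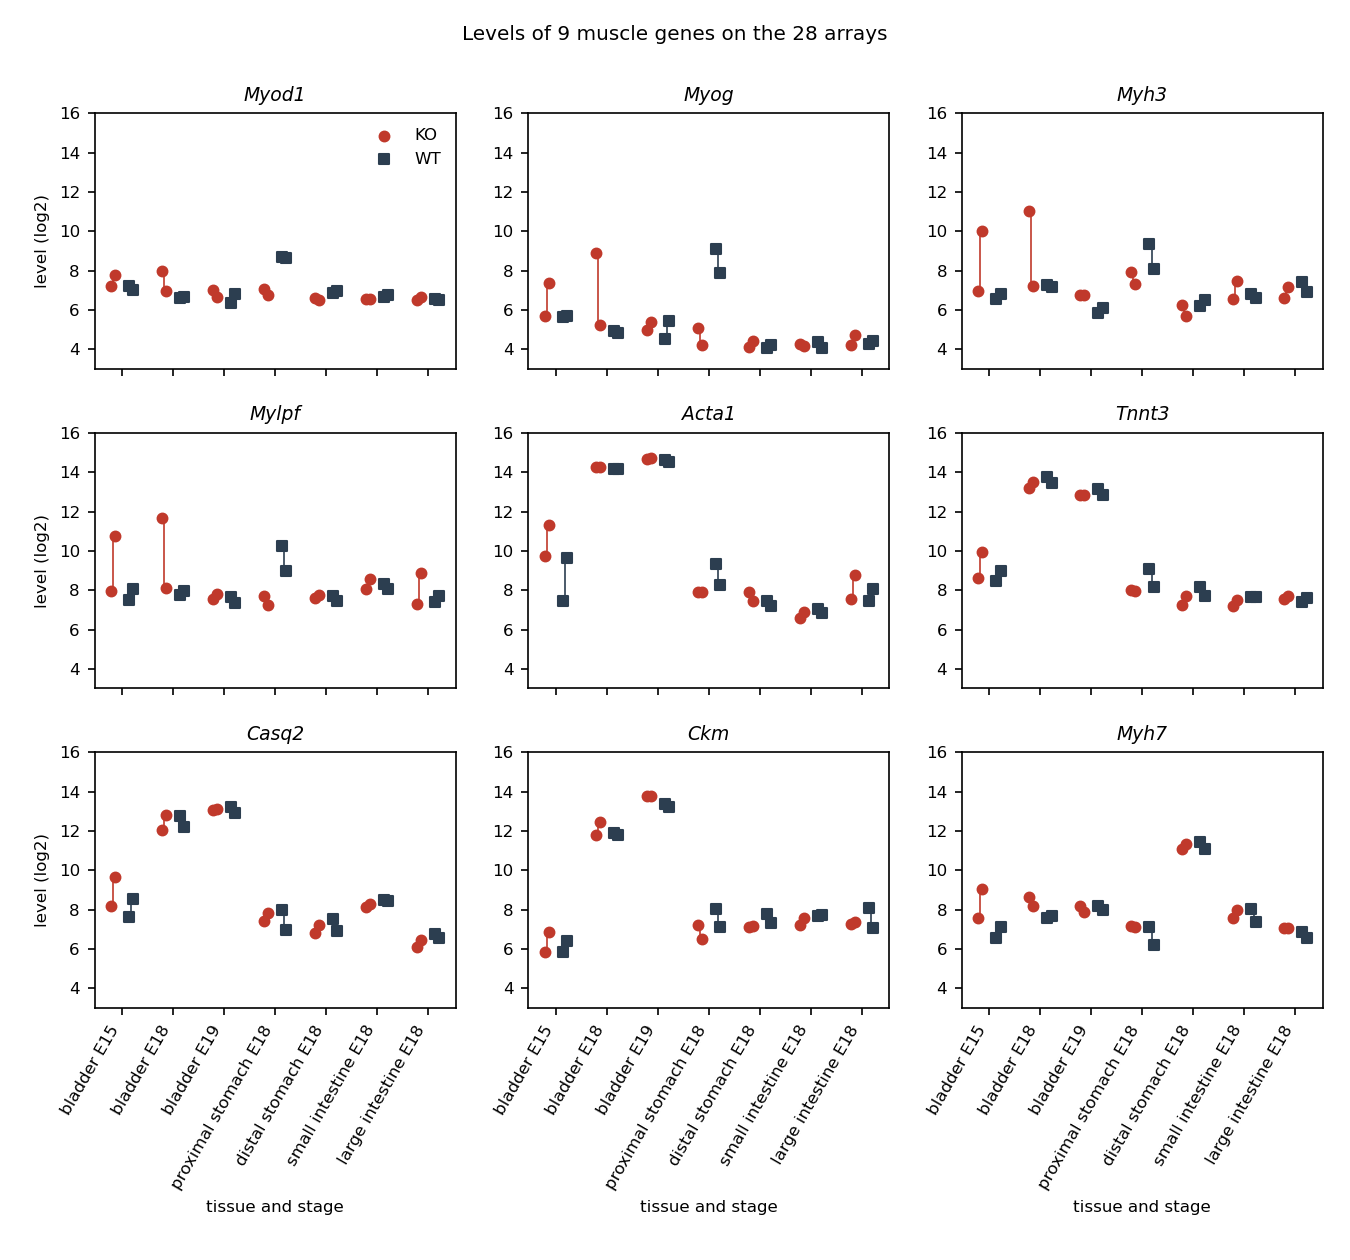
Levels of 9 genes (log2) on each array, with KO as circles left of WT as squares in each tissue and stage and a line joining the 2 arrays of a group. Acta1, Tnnt3, Casq2 and Ckm are high in both genotypes at bladder E18 and E19, while Myog, Myh3 and Mylpf differ most between the 2 KO arrays at E15 and at E18.

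Smooth muscle genes moved with the bladder's age as well. Of 19 smooth muscle genes tested, 14 rose and 1 fell from E15 to E18 in WT bladder, with the intermediate filament genes Synm (5.37) and Des (3.60) and the contractile gene Cnn1 (1.94) among them. That list shares Casq2 with the set, and shares Des and Ldb3 with the further skeletal muscle genes below, where both are counted again. The mean level of the list was 13.52 and 13.49 in WT bladder E18, against 12.01 and 12.49 at E15. Of 31 further skeletal muscle genes tested, 16 rose and 2 fell, such as Cav3, a caveolin of muscle (3.61), and Pvalb, a calcium buffer (2.99). Genes shared by fetal skeletal and cardiac muscle were among them and were high: Actc1, the cardiac actin, rose by 1.84, Myl4 by 2.31 and Tnnt2 by 1.01. Of 9 cardiac genes tested 1 rose, Myl7 (1.01), and 3 fell. Myh4, a fast adult myosin, stood at or below 5.98 on every array, Myh6, the atrial myosin, at or below 6.48, and Pax7, the marker of muscle stem cells, at or below 5.71. The part of smooth muscle in the rise of the 11 genes was not tested.

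From E18 to E19 few genes of the set changed in WT bladder. Ckm rose, with 13.36 and 13.23 at E19, against 11.91 and 11.78 at E18 (1.45, SE 0.35, adjusted p = 0.00120). Tnnc1, slow troponin C, fell to 10.14 and 9.83, against 12.02 and 11.92 (-1.99, SE 0.48, adjusted p = 0.00125), and Tnni2 fell to 9.90 and 9.46, against 11.50 and 11.21 (-1.67, SE 0.22). That makes 1 gene higher and 2 lower of 24, where 26.9% of all genes rose and 36.2% fell. In KO bladder 3 genes rose (Ckm 1.62, Casq1 1.22, Actn3 0.89) and 9 fell, where 28.2% of all genes rose and 32.2% fell. The 9 included Tnni2 (-2.21), Myh3 (-2.39), Mylpf (-2.19), Myl1 (-2.06) and Myog (-1.88). In bladder, Myog exceeded the array median only on KO bladder E18 replicate 1, which favoured a fall. Mybpc1 and Actn2, also among the 9, passed the filter only through KO bladder E15 replicate 2 and KO bladder E18 replicate 1. In bladder, Myh3 exceeded the median only on these arrays as well. For these genes too a fall was favoured, so the count of 9 is not independent of the filter. Without KO bladder E18 replicate 1, 3 genes passed, Tnni2 (-2.03), Ryr1 (-1.30) and Ckm (1.31); without KO bladder E19 replicate 1 or 2, 7 and 4 passed. Centring each array on its median moved the median of all genes from -0.01 to 0.30 in KO bladder, where 4 genes of the set then rose and 5 fell, and from -0.08 to 0.15 in WT bladder, where 1 rose and 2 fell.

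The 2 arrays of KO bladder E18 differed from each other in many genes of the set. On replicate 1, 15 of the 35 genes stood at least 2-fold above replicate 2 and 1 stood below, Casq1. Among the 24 tested, 10 stood above by that much and 1 below, where 1.44% of all genes tested stood above and 0.324% below. Myog read 8.88 and 5.26 in KO bladder E18, against 4.93 and 4.81 in WT bladder E18. Myh3 read 11.06 and 7.22, against 7.25 and 7.19, and Mylpf read 11.67 and 8.10, against 7.77 and 7.98. For these 3 genes replicate 1 alone stood high, and replicate 2 read close to the WT arrays.

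The 15 genes came from the myogenic factors, the thick filament, the thin filament and Z disc, and the acetylcholine receptor, with none of the calcium genes or metabolic enzymes. Myl1, an essential light chain, read 10.18 and 6.34 in KO bladder E18, against 6.17 and 6.83 in WT. Ttn, the giant protein titin that spans the sarcomere, read 9.35 and 6.42, against 6.57 and 6.51. Chrna1, the alpha subunit of the acetylcholine receptor, read 7.46 and 5.46, against 5.77 and 5.60. The remaining ones were Mybpc1, Tnni1, Actn2, Neb, Tnnc1, Myf5, Myh2, Myh1 and Myod1.

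Only Myh2 and Tnnc1 belonged both to these 15 genes and to the 11 that were at least 2-fold higher in WT bladder at E18 than at E15. Of the genes that rose by more than 4 with age in WT bladder, Acta1 read 14.27 and 14.25 on the 2 KO arrays, Myh8 10.70 and 10.59, and Tnnc2 13.62 and 13.90. Ckm read 11.82 and 12.46, Casq2 12.07 and 12.83, and Tnnt3 13.22 and 13.52, so these 3 were lower on replicate 1.

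**Figure D3:**
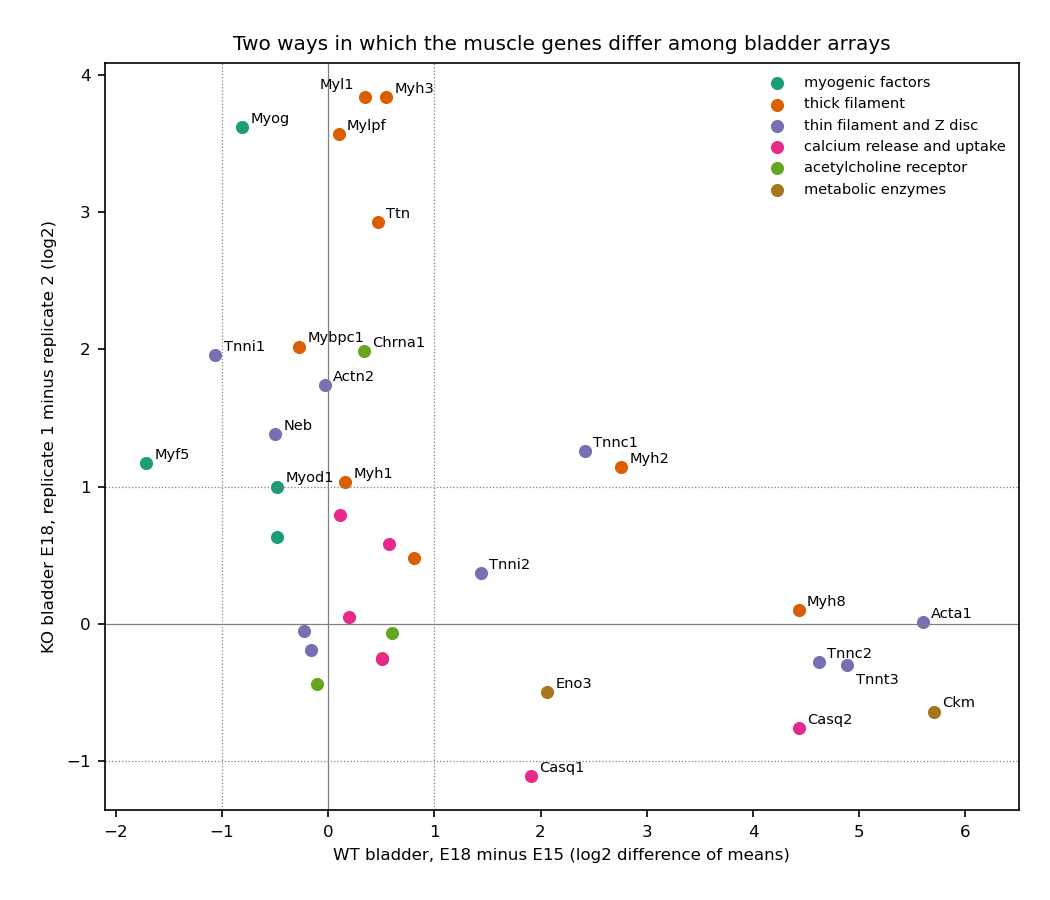
Each point is 1 of the 35 genes, coloured by role, with the WT difference between E18 and E15 (log2) on the x axis and the difference between the 2 KO bladder E18 arrays (log2) on the y axis; dotted lines mark 2-fold. Acta1, Ckm, Tnnt3, Tnnc2, Casq2 and Myh8 lie to the right near 0, Myog, Myh3, Myl1 and Mylpf lie high near 0, and Myh2 and Tnnc1 pass 2-fold on both axes.

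For KO against WT at bladder E18, 0 of 24 genes passed with limma (9 at an unadjusted p under 0.05), where 1.57% of all genes were called higher and 1.68% lower. Both KO arrays lay above both WT arrays for 11 of the 24, where 27.1% of all genes did so. Without KO bladder E18 replicate 2, 8 genes passed as higher, among them Myog (4.01) and Myl1 (3.68). That fit leaves 1 KO array, the one already seen to stand high, assumed to vary like the other groups, so it restates the level of that array. Without replicate 1, 0 passed. Genes of nerve moved with the same array. The mean level of 12 nerve and Schwann cell genes was 8.05 on replicate 1 and 6.92 on replicate 2, against 6.51 and 7.04 in WT, with Prph, a neuronal intermediate filament, at 10.05 and 7.58, against 6.88 and 8.21. The liver genes measured averaged 7.89 and 6.95 in KO, against 6.70 and 6.78 in WT. Chat, Slc5a7 and Slc18a3 mark cholinergic neurons such as motor neurons. Chat read 5.74 and 5.24 in KO bladder E18, against 5.35 and 5.41 in WT. Slc5a7 read 5.25 and 4.48, against 5.05 and 4.56, and Slc18a3 6.17 and 5.41, against 5.41 and 5.72. All these values lay below the array median. Chat and Slc5a7 did so on every array, also in WT large intestine, where the nerve list averaged 9.22 and 9.20. The part of nerve and liver in the muscle signal was not tested.

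At bladder E15, 5 of the 24 genes were higher in KO and 0 lower, where 4.58% of all genes were higher and 2.50% lower. Tnni2 had close replicates in both genotypes, 11.30 and 11.22 in KO bladder E15, against 9.87 and 9.96 in WT (1.35, SE 0.22, adjusted p = 0.00108). Mybpc1, a myosin-binding protein of slow fibres, read 7.47 and 9.76, against 6.57 and 6.55 (2.06, SE 0.54, adjusted p = 0.0259). Acta1 read 9.74 and 11.31, against 7.45 and 9.66 (1.97, SE 0.53, adjusted p = 0.0286). The KO arrays lay above the WT arrays for each of these genes, but only just for Acta1. Other probe sets differed by 0.98 and -0.12 for Tnni2 and by 1.05 and 0.48 for Mybpc1. Mybpc1 passed the filter only through KO bladder E15 replicate 2 and KO bladder E18 replicate 1.

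The other calls at E15 were Myh8, with 6.54 and 8.63 in KO, against 5.89 and 5.87 in WT (1.70, SE 0.43, adjusted p = 0.0213), and Myh7, the slow and ventricular myosin, with 7.60 and 9.04, against 6.54 and 7.14 (1.49, SE 0.36, adjusted p = 0.0166). The median over the 24 genes was 0.89, against 0.07 over all genes, and 22 of them had a positive difference. Both KO arrays lay above both WT arrays for 14 of them, where 33.9% of all genes did so.

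KO bladder E15 replicate 2 stood at least 2-fold above replicate 1 for 15 of the 35 genes. All 15 were among the 24 tested, where 0.590% of all genes tested did so. Myh3 read 6.95 and 10.01 in KO bladder E15, against 6.55 and 6.79 in WT, and Mylpf read 7.95 and 10.77, against 7.48 and 8.08. Myog, Myh3, Mylpf, Myl1, Mybpc1, Tnnc1 and Actn2 were at least 2-fold higher both on this array and on KO bladder E18 replicate 1, each against its fellow array. Each array had 15 such genes of the 35, and unrelated lists of that size also share genes. Whether these 7 exceed such an overlap was not tested. Mybpc1 and Actn2 passed the filter only through these arrays. Without replicate 2, or without WT bladder E15 replicate 1, Tnni2 alone passed (1.38 and 1.30). With the actin covariate 0 of 24 passed, and Tnni2 had a difference of 1.57 (adjusted p = 0.378). The actin difference was 1.33 and 1.12 in KO bladder E15 and at most 0.97 on every other array. Covariate and group are therefore hard to tell apart, and a call lost with the covariate does not show the part of RNA quality. That part was not tested.

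Nerve genes were also higher in KO bladder E15: 4 of 9 tested were called higher and 0 lower, among them Prph (2.57, adjusted p = 0.00695) and Stmn2 (1.59, adjusted p = 0.00398). Their mean level was 7.08 and 7.54 in KO, against 6.34 and 6.69 in WT. The liver genes averaged 6.77 and 7.49 in KO, against 6.48 and 6.85 in WT, so they too were highest on KO replicate 2. Their part in the muscle signal was not tested. Of the 31 further skeletal muscle genes 0 were higher and 1 lower, Dmd, the dystrophin gene (-1.13, adjusted p = 0.00244). The mean level of the 57 genes of that list on the array was 7.33 and 7.73 in KO, against 7.11 and 7.38 in WT. It was thus highest on KO replicate 2 among these arrays, although no gene of the list was called higher.

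At bladder E19, 1 of the 24 genes was higher in KO and 0 lower, where 13.5% of all genes were higher and 6.52% lower. Both KO arrays lay above both WT arrays for 12 of the 24, where 41.6% of all genes did so. Casq1, the calsequestrin of fast fibres, read 10.23 and 10.54 in KO bladder E19, against 9.76 and 8.82 in WT (1.10, SE 0.38, adjusted p = 0.0479). It lost the call without KO bladder E19 replicate 1 (1.25, adjusted p = 0.105), without KO bladder E19 replicate 2 (0.94, adjusted p = 0.232) or without WT bladder E19 replicate 2 (0.63, adjusted p = 0.391). Myh3 read 6.76 and 6.74 in KO, against 5.83 and 6.11 in WT, and Mylpf read 7.56 and 7.83, against 7.65 and 7.34, so neither genotype showed the high arrays of the younger stages. The change in the KO difference from E18 to E19 passed for 0 of 24 genes with limma (3 at an unadjusted p under 0.05), where 4% of all genes were called higher and 1.30% lower. Of the further skeletal muscle genes 4 were higher and 1 lower, with Pvalb at 2.03 (adjusted p = 5.1e-04) and Srl, a protein of the calcium store, at 1.32 (adjusted p = 1.3e-04).

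In proximal stomach 6 of the 24 genes were lower in KO and 0 higher, where 14.6% of all genes were lower and 18.1% higher. Myod1 and Myog passed the filter only through both WT proximal stomach arrays and KO bladder E18 replicate 1. For these genes a call as lower in KO was therefore favoured by the filter. Myod1, which commits cells to the myogenic fate, read 7.09 and 6.76 in KO proximal stomach, against 8.72 and 8.64 in WT (-1.75, SE 0.26, adjusted p = 2.0e-05). Myog read 5.09 and 4.22, against 9.08 and 7.88 (-3.83, SE 0.71, adjusted p = 2.6e-04). Both KO arrays lay below both WT arrays for each factor. The calls of Myod1 and Myog held under each of the 12 alternatives tried for them. A filter at the 75th percentile was not among these, because both genes leave the test under it.

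The other 4 calls were of structural genes and the calcium release channel, and each was lost without at least 1 single array. Mylpf read 7.73 and 7.23 in KO proximal stomach, against 10.27 and 8.99 in WT (-2.15, SE 0.81, adjusted p = 0.0476). Myh8 read 6.56 and 6.34, against 7.66 and 7.60 (-1.18, SE 0.43, adjusted p = 0.0407). Tnnt1, slow troponin T, read 11.21 and 10.78, against 12.30 and 11.49 (-0.90, SE 0.24, adjusted p = 0.00636). Ryr1, the calcium release channel, read 6.92 and 6.75, against 8.10 and 7.27 (-0.85, SE 0.31, adjusted p = 0.0385).

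Without WT proximal stomach replicate 1, or without KO replicate 2, Myod1 and Myog alone passed; without KO replicate 1 the count was 3, and without WT replicate 2 it was 11. The 2 WT arrays differed themselves: replicate 1 stood at least 2-fold above replicate 2 for 9 of the 35 genes. Among the 24 tested, 8 did so, where 1.71% of all genes tested did so. With the actin covariate 3 passed, Myod1 (-2.11), Myog (-4.19) and Myh8 (-2.01).

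Other genes of the set lay lower in KO proximal stomach without a call. Myh3 read 7.95 and 7.30 in KO, against 9.36 and 8.08 in WT, Acta1 7.93 and 7.91, against 9.34 and 8.26, and Tnnc2 7.81 and 7.89, against 9.70 and 8.76. The median over the 24 genes was -0.71, against 0.02 over all genes, and 21 had a negative difference. Both KO arrays lay below both WT arrays for 17 of them, where 28.6% of all genes did so. In the fit without the filter Cacna1s (-0.81, adjusted p = 0.00831) and Chrnd (-0.66, adjusted p = 0.0235) also passed, at levels below the array median. Second probe sets of Myod1 and Ryr1, too dim for the filter, differed by -0.18 and 0.

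Among the further skeletal muscle genes 6 were lower and 2 higher in KO proximal stomach. Myom2, a protein of the M band, read 6.09 and 5.40 in KO, against 7.39 and 7.63 in WT (-1.76, SE 0.60, adjusted p = 0.0291). Chrnb1, the beta subunit of the acetylcholine receptor, was higher (1.15, SE 0.27, adjusted p = 0.00205). Of 10 precursor and lineage genes tested, 2 were lower, Megf10 (-1.08) and Cdh15 (-0.50), the cadherin of muscle precursors. The 2 higher ones were Isl1 (1.87) and Met (0.65). Smooth muscle genes numbered 1 higher, Myocd, the smooth muscle coactivator (0.54), and 3 lower, Synm (-1.44), Myh11 (-0.55) and Synpo2 (-0.46), of 19 tested. Their mean level was 11.97 and 11.76 in KO, against 12.26 and 11.95 in WT. Squamous epithelium genes were lower in KO for 6 of 9 tested, with a mean level of 9.20 and 9.32, against 13.71 and 13.59. Nerve genes were higher for 3, with Isl1 counted again among them, and lower for 1 of 9. The part of these tissues in the muscle difference was not tested.

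**Figure D4:**
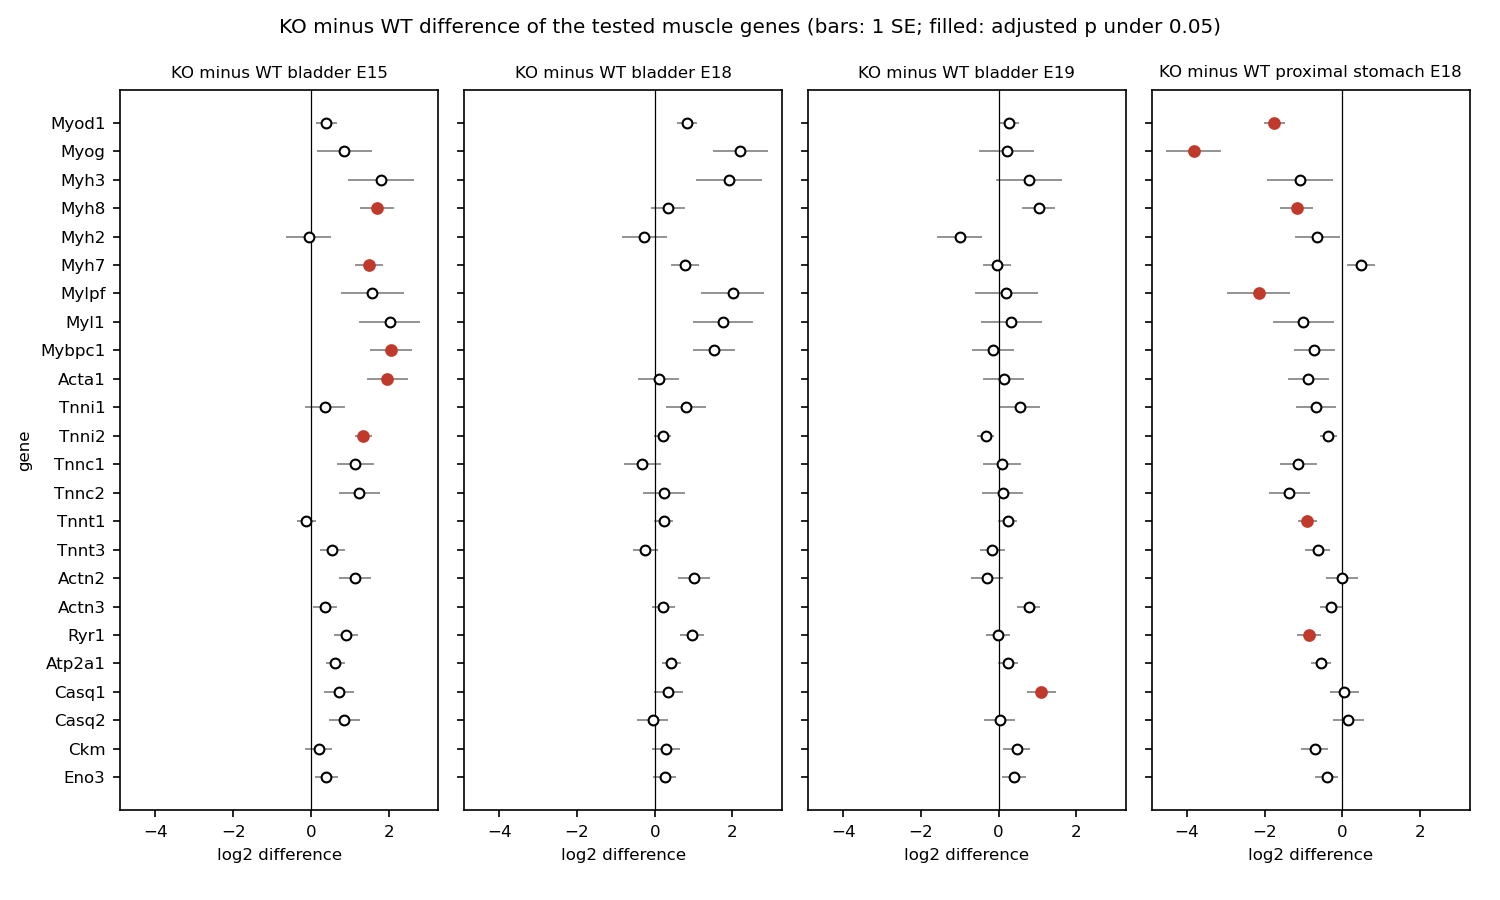
KO minus WT difference (log2, x axis, bars 1 SE) of the 24 tested genes (rows) in bladder at E15, E18 and E19 and in proximal stomach at E18, with filled points at an adjusted p under 0.05. The 5 filled points at bladder E15 and the 1 at E19 lie above 0, and the 6 in proximal stomach lie below 0.

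The KO difference itself differed between proximal stomach and bladder at E18. For 6 of 24 genes it was lower in proximal stomach and for 0 higher, where 10.4% of all genes were lower and 12.4% higher. Myod1 and Myog passed the filter only through both WT proximal stomach arrays and KO bladder E18 replicate 1, whose high levels lower this difference. Mybpc1 passed only through KO bladder E15 replicate 2 and KO bladder E18 replicate 1. The count of 6 is therefore not independent of the filter. Myog differed by -6.02 between the tissues (SE 1.01, adjusted p = 1.5e-04), with a KO difference of -3.83 in proximal stomach and 2.20 in bladder. Myod1 differed by -2.58 (SE 0.37, adjusted p = 2.4e-05) and Ryr1 by -1.81 (SE 0.43, adjusted p = 0.00414). Mylpf (-4.16), Mybpc1 (-2.24) and Tnnt1 (-1.13) also passed. Without KO bladder E18 replicate 1, Mylpf (-2.37, adjusted p = 0.0921) and Mybpc1 (-1.23, adjusted p = 0.255) lost the call. Without WT proximal stomach replicate 1, Myod1 (-2.54), Myog (-5.43) and Ryr1 (-1.40) were the genes that passed.

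Within WT stomach, of 24 genes 8 were higher and 1 lower in proximal stomach, where 18.2% of all genes were higher and 22.3% lower. The filter favoured a call as higher for Myog and Myod1, which passed it only through both WT proximal stomach arrays and KO bladder E18 replicate 1. Myog read 9.08 and 7.88 in WT proximal stomach, against 4.06 and 4.24 in WT distal stomach (4.33, SE 0.71, adjusted p = 4.4e-05). Myod1 read 8.72 and 8.64, against 6.84 and 6.99 (1.76, SE 0.26, adjusted p = 1.2e-05). The others were Myh3 (2.39), Tnnt1 (2.03), Acta1 (1.49), Ryr1 (1.14), Casq1 (0.97) and Atp2a1, the calcium pump of fast fibres (0.77). Of the 4 myogenic factors, Myf5 and Myf6 were outside the test. Smooth muscle genes were higher in proximal stomach for 11 of 19 tested and lower for 0, squamous genes higher for 9 of 9, and nerve genes lower for 4 of 9 and higher for 0. Their part in the muscle difference was not tested.

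Myh7 ran the other way, with 7.14 and 6.18 in WT proximal stomach, against 11.44 and 11.11 in WT distal stomach (-4.61, SE 0.36, adjusted p = 1.0e-09). KO distal stomach gave the same high level of Myh7, 11.11 and 11.32. Without WT proximal stomach replicate 1, 4 genes passed, Myod1, Myog, Tnnt1 and Myh7. Without WT proximal stomach replicate 2 the count was 15, and without WT distal stomach replicate 1 it was 5.

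In WT bladder at E18, set against WT proximal stomach, 11 of 24 genes were higher and 3 lower, where 24.3% of all genes were higher and 22.4% lower. Acta1 was higher by 5.36, Casq2 by 5.02, Tnnt3 by 4.99, Tnnc2 by 4.29 and Ckm by 4.27. The log2 difference was -3.61 for Myog, -2.27 for Myl1 and -2.05 for Myod1. Myog and Myod1 passed the filter only through both WT proximal stomach arrays and KO bladder E18 replicate 1. Myh2, among the 11 higher in bladder, passed it only through WT bladder E18 replicate 1 and WT bladder E19 replicate 1. The filter thus favoured the call of Myh2 as higher and those of Myog and Myod1 as lower. Smooth muscle genes were higher in bladder for 18 of 19 tested and lower for 0, nerve genes higher for 1 and lower for 7 of 9, and squamous genes lower for 9 of 9. Their part in the muscle difference was not tested.

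In distal stomach and small intestine 0 of 24 genes passed for KO against WT with limma, and 0 had an unadjusted p under 0.05. Over all genes 0% were called in either direction in both tissues. In large intestine 0 of 24 passed, with 0 at an unadjusted p under 0.05, where 0.0590% of all genes were called higher and 0.0295% lower. Some single arrays stood out there too. Mylpf read 7.31 and 8.85 in KO large intestine, against 7.38 and 7.68 in WT, and Acta1 read 7.56 and 8.79, against 7.43 and 8.06. KO replicate 2 stood at least 2-fold above replicate 1 for 6 of the 35 genes. Among the 24 tested, 5 did so, where 1.14% of all genes tested did so. The liver genes averaged 8.24 and 9.89 in KO large intestine, against 9.93 and 8.68 in WT.

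The share of the set that differed between the 2 parts of WT intestine was no higher than the share of all genes. In large intestine 3 of 24 were higher and 3 lower than in small intestine, where 24.0% of all genes were higher and 19.6% lower. Eno3 read 12.02 and 10.68 in WT large intestine, against 9.18 and 9.37 in WT small intestine (2.08, SE 0.30, adjusted p = 1.3e-05). Casq2 read 6.74 and 6.55, against 8.50 and 8.45 (-1.83, SE 0.40, adjusted p = 8.9e-04). Tnnt1 (0.78) and Tnni2 (0.58) were higher, and Myh7 (-0.98) and Ryr1 (-0.90) lower. Each of these calls was lost under some alternatives, that of Tnni2 under 7 of 13, while the calls of Eno3 and Casq2 held.

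Lists of other cell types give the background to these values. Of 9 cardiac genes tested, 0 were called for KO against WT in bladder at E15 and E18, 1 higher and 1 lower at E19, and 1 lower in proximal stomach, Myl7. On each WT bladder E18 array 7 of the 15 cardiac genes on the array exceeded its median, while Nppa, the atrial peptide, stood at or below 7.19 on every array and Sln at or below 5.82. Cartilage and bone genes had 0 calls of 5 in bladder at each stage and 1 higher in proximal stomach. Fat genes had 1 higher of 4 at bladder E15, 1 lower at E18, 1 lower at E19, and 1 higher and 2 lower in proximal stomach. Liver genes had 1 higher of 8 at bladder E19 and 1 lower in proximal stomach. Of the precursor and lineage genes 1 was lower at bladder E18, Six4 (-1.37, adjusted p = 0.0102), and Pax3 and Pax7, which mark muscle precursors, lay below the median of every array.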

How the data were processed

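Total RNA of 28 arrays (14 groups of 2) was labelled with a 3' IVT kit and hybridised to Affymetrix mouse arrays. The deposited values are log2 levels per probe set made by the authors. Per the submitters' processing notes, the tools were Affymetrix Expression Console and Partek. Neither background correction nor normalization is described in the sources used here, and no further normalization was applied. Of 45101 probe sets 64 controls were left out, and 34945 of the rest carried a single symbol in the platform annotation. The probe set with the highest mean stood for each of 18193 genes, and 13566 genes above their array's median on at least 2 arrays were tested.

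limma 3.58.1 (R 4.3.3) fitted a mean per group to all 28 arrays with a trended variance (14 residual degrees of freedom), and p-values were adjusted by Benjamini-Hochberg over the 13566 genes within each of 17 comparisons. Of these, 16 were in the original plan and the difference between the E19 and E18 effects was added later. An exact permutation test of 2 against 2 cannot go below p = 0.333, so none is given. The 2 arrays per group limit the precision. The named genes are the 35 members with calls or with arrays at least 2-fold apart, and called genes of the other lists. Members and lists were chosen with earlier results of these data known. The fit was tested on simulated data. Promoters came from RefSeq. Figures were drawn with matplotlib 3.10.9.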

Additional observations from a re-analysis of the deposited data

Results flagged for a closer look

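The KO difference in proximal stomach and that in bladder at E18 differed by limma's test of the difference for 6 genes. The values, proximal stomach minus bladder on the log2 scale, were -6.02 for Myog (adjusted p = 1.5e-04), -4.16 for Mylpf (adjusted p = 0.0118), -2.58 for Myod1 (adjusted p = 2.4e-05), -2.24 for Mybpc1 (adjusted p = 0.0384), -1.81 for Ryr1 (adjusted p = 0.00414) and -1.13 for Tnnt1 (adjusted p = 0.02). Myod1 and Myog passed the filter only through both WT proximal stomach arrays and KO bladder E18 replicate 1. Mybpc1 passed only through KO bladder E15 replicate 2 and KO bladder E18 replicate 1. KO bladder E18 replicate 1 stood high for Myog, Mylpf, Mybpc1 and Myod1. Without it the difference was -4.21 for Myog, -2.08 for Myod1, -1.42 for Ryr1 and -1.15 for Tnnt1, all still called, and -2.37 for Mylpf and -1.23 for Mybpc1, not called.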

How the results depend on the processing

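Of 82 calls of single genes, 40 held under all alternatives tried, and 0 of 1072 alternative fits turned a sign. The actin covariate ended 29 of the 82 calls and a fit on only the arrays of the groups compared ended 15. With the actin covariate the called genes numbered 0 for KO against WT bladder E15, 3 for proximal stomach, 2 for KO bladder E18 against E15 and 5 for KO bladder E19 against E18. With only the arrays compared they numbered 1 for bladder E15, 5 for bladder E19, 17 for WT bladder E18 against E15 and 9 for WT bladder E19 against E18. Without a filter they numbered 2 for bladder E19, 6 for WT bladder E19 against E18 and 1 for the E19 against E18 difference of the KO effect. A filter at the 75th percentile kept the genes of 55 of the 82 calls in the test and ended 0 of these calls. The lower counts under it thus came from genes that left the test. The called genes then numbered 5 for KO bladder E19 against E18, 5 for WT proximal against distal stomach and 2 for the proximal stomach against bladder difference. Quantile normalization gave 0 for bladder E19, and array weights gave 4 for bladder E18, 3 for bladder E19 and 5 for WT proximal against distal stomach. The causes of the other changes were not tested.

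Leaving out each array in turn, with the lone array left assumed to vary like the other groups, gave 1 to 7 genes for KO against WT bladder E15, 0 to 8 for E18, 0 to 2 for E19, 2 to 11 for proximal stomach and 0 to 1 for large intestine, and 0 throughout for distal stomach and small intestine. It gave 11 throughout for WT bladder E18 against E15, 3 to 4 for WT E19 against E18, 9 to 13 for KO E18 against E15 and 3 to 15 for KO E19 against E18. It gave 4 to 15 for WT proximal against distal stomach, 11 to 14 for WT bladder against proximal stomach and 2 to 4 for WT large against small intestine. For the differences of KO effects it gave 3 to 10 for proximal stomach against bladder, 0 to 1 for E18 against E15 and 0 to 5 for E19 against E18. Omitting both KO bladder E15 replicate 2 and KO bladder E18 replicate 1, chosen after seeing the data, ended 1 of 9 calls of KO bladder E18 against E15, that of Myh2.

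Arrays of the same replicate number did not deviate together in every tissue (correlations from -0.13 to 0.27), so the numbers were not taken to pair the arrays. With the replicate block the called genes numbered 1 for bladder E18, 10 for proximal stomach, 11 for the proximal stomach against bladder difference and 1 for the E18 against E15 difference, and 0 of the 82 calls were lost.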
